A study of Camelus dromedarius with 4 samples.

Results

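Chemerin is a secreted chemoattractant and adipokine, the product of RARRES2 (retinoic acid receptor responder 2). It is made as prochemerin, which proteases of the clotting, fibrinolytic and inflammatory systems activate by trimming its C-terminus, and it acts through the G protein-coupled receptors CMKLR1 and GPR1. CCRL2 is an atypical receptor that holds chemerin at the cell surface without known signalling of its own. In the hypothalamus of seasonal rodents chemerin is known from tanycytes, the glia lining the floor of the third ventricle, where its expression follows day length.

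The 4 genes of this system (RARRES2, CMKLR1, GPR1 and CCRL2) were looked up by symbol among the 18152 gene symbols of the deposited table of season means, of which 16053 carry a mean for each season. The table had entries for 3 of the 4 genes, and 2 of these, RARRES2 and CCRL2, had season means. GPR1 was listed without a mean in either season, so its level is not given. CMKLR1 matched no entry under that spelling and is not analysed here. One entry is spelled CMLKR1, with 2 letters of the receptor's symbol transposed. That spelling is not in the RefSeq gene table of the dromedary (assembly mCamDro1.pat), which does hold CMKLR1, and it was not settled whether the entry is the receptor, so its values are given under its own spelling.

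RNA came from the supraoptic nucleus, the hypothalamic cluster of vasopressin and oxytocin magnocellular neurones, dissected from hydrated adult male dromedary camels of the Tergui breed, with 2 libraries from winter (replicates 2 and 3) and 2 from summer (replicates 1 and 2). The winter animals were slaughtered at El Oued and the summer animals at Ouargla, on a single date each, so season, site and date cannot be told apart. No other treatment, allele or agent distinguished the groups, and the libraries of a season were the only replicates. Between 4379162 and 6902037 reads per library fell on the 64989 gene models of the count files, which carry no gene names.

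The named season means are averages of the reads of 2 libraries, each divided by its size factor (the correction for sequencing depth). One read is worth a fixed step in each library, so each mean was solved for whole reads, which gave a single answer in both seasons for 9902 symbols, RARRES2, CCRL2 and CMLKR1 among them. The recovered reads carry no replicate number, and the libraries were not matched to the replicates. The libraries are therefore called winter A and winter B (size factors 1.33 and 0.946) and summer A and summer B (0.922 and 0.877), A being the larger factor of each season, and the letter links nothing across seasons. Levels below are normalised reads, that is reads divided by the size factor, and are not corrected for gene length, so they are not compared between genes. Intervals are exact 95% Poisson intervals that cover counting error only. The detection floor of 3 reads corresponded to 2.26 to 3.42 normalised reads per library.

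Magnocellular markers were present in all 4 libraries, though unevenly. OXT, the oxytocin precursor, had season means of 592 in summer and 621 in winter. SIM1 and OTP, transcription factors of these neurones, were lowest in winter B, at 13.7 and 21.2 normalised reads. The other libraries had 48.8 to 63.8 and 37.6 to 79.2. POU3F2, another such factor, was lowest in summer A, at 30.4. Over the 7658 genes tested, the libraries farthest apart were the pair of summer libraries, with a median absolute log2 difference of 0.646, and the closest were the pair of winter libraries, with 0.441. In bulk tissue, fewer cells of a type and less RNA per cell cannot be told apart.

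RARRES2, the chemerin gene itself, was high in 1 library only. Winter A held 118 reads (89.0 normalised, interval 73.7 to 107), winter B 52 reads (55.0, 41.1 to 72.1), summer A 81 reads (87.8, 69.8 to 109) and summer B 411 reads (468, 424 to 516). Both winter libraries and summer A thus lay between 55.0 and 89.0, and summer B stood 5.26-fold above the highest of them. Of 492 summer reads, summer B held 83.5% (exact binomial 95% interval 79.96 to 86.7%), where equal levels would give 48.8%. Within winter the libraries differed by 1.62-fold, with winter B holding 30.6% of 170 reads (23.8 to 38.1%) where equal levels would give 41.6%.

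**Figure D1:**
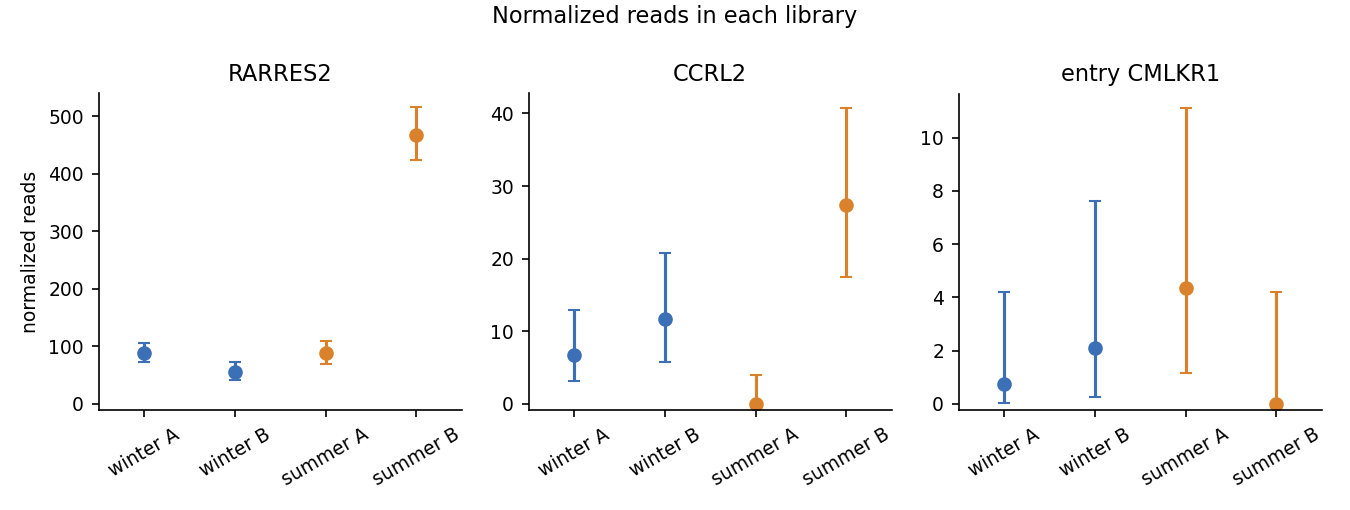
Normalised reads (vertical axis, its scale differing between panels) of RARRES2, CCRL2 and the entry CMLKR1 in winter A, winter B, summer A and summer B. Points are single libraries and bars are exact 95% Poisson intervals. Summer B stands at 468 for RARRES2, with the other 3 libraries between 55.0 and 89.0, and CCRL2 has 0 reads in summer A.

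The season means of RARRES2 were 278 in summer and 72.0 in winter, a 3.86-fold difference (log2 ratio of winter over summer, -1.95). The genes were selected on their season means, so this ratio is a description and was not tested. Season means over 2-fold apart were found in 1 of the 2 genes, RARRES2. Among the 13809 symbols whose mean reached 10 in winter or summer they were found in 7.26%, with winter higher in 2.72% and summer higher in 4.53%. The libraries of the seasons overlapped narrowly, summer A at 87.8 lying just under winter A at 89.0. Under these size factors 17.2% of the 7658 genes tested had both summer libraries above both winter libraries. The order of summer A and winter A depended on the scaling. With TMM factors they had 95.6 and 88.1. With total recovered reads, summed over the genes tested, they had 93.3 and 89.2, and with upper quartiles 91.8 and 87.9. Under each of these scalings both summer libraries lay above both winter libraries. Such non-overlap was found in 14.9% of the genes tested with TMM factors, 12.3% with total recovered reads and 14.7% with upper quartiles.

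The difference rested on summer B. Without summer B the summer level of RARRES2 was 1.22-fold the winter level (log2 ratio -0.29). Without summer A it was 6.50-fold, and without winter A or winter B it was 5.06-fold or 3.12-fold. The direction was the same in each of these 4 comparisons, but the size without summer B was smaller than the 1.62-fold difference between the winter libraries.

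**Figure D2:**
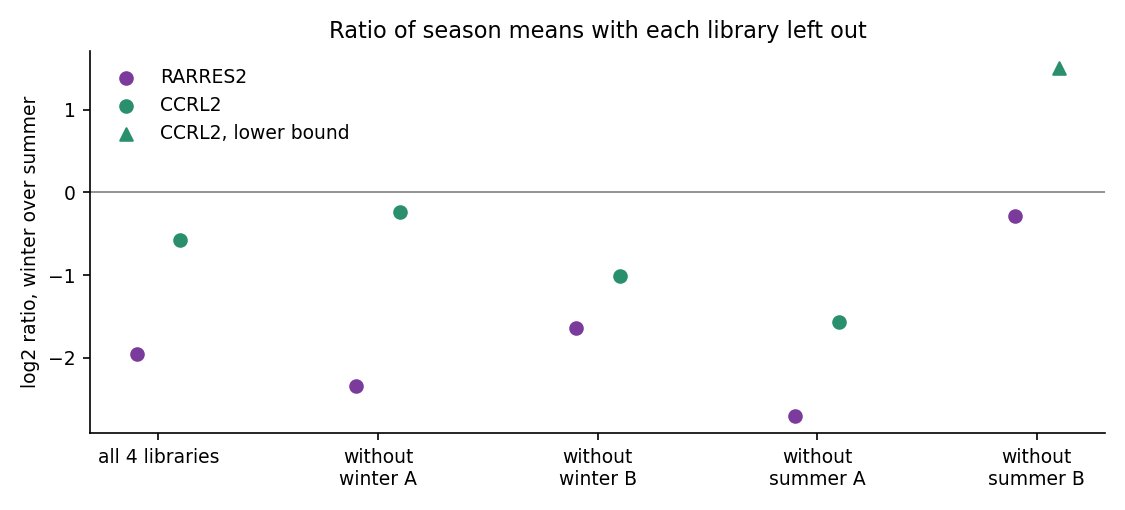
Log2 ratio of the winter level over the summer level (vertical axis) for RARRES2 and CCRL2 with all 4 libraries and with each library left out (horizontal axis). The triangle is a lower bound, computed against 3 reads in summer A. Without summer B, RARRES2 moves from -1.95 to -0.29 and CCRL2 lies above 0.

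Many genes were uneven between the summer libraries. On the log2(normalised reads + 0.5) scale, summer B over summer A had a median of 0.28 over the genes tested, with the 10th percentile at -0.78 and the 90th at 2.54, compared to -1.02 and 0.76 for winter B over winter A. RARRES2 had 2.41 for the summer pair, and 855 genes (11.2%) were as far from an even split in either direction. Summer B was the highest of the 4 libraries in 37.5% of the genes tested. An excess over every other library as large as that of RARRES2 was less common, being reached by 49 genes (0.640%). This median and these shares depend on the scaling and are given only under the size factors. TMM factors were 0.844 for summer A and 0.967 for summer B, where the size factors on the same scale were 0.919 and 0.874. TMM therefore raises summer A and lowers summer B.

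**Figure D3:**
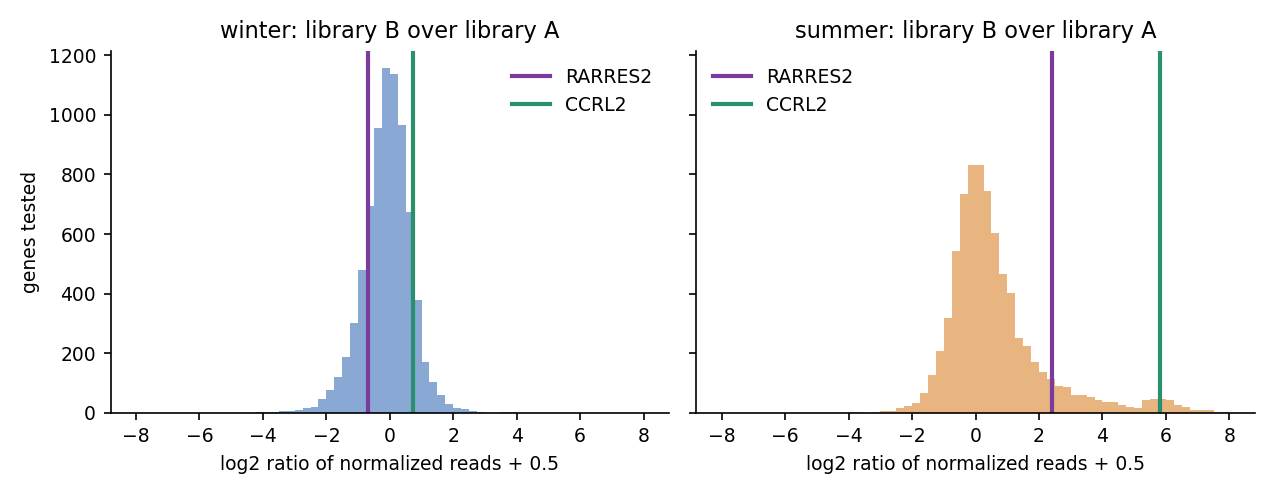
Number of tested genes (vertical axis) by the log2 ratio of normalised reads + 0.5, library B over library A of the same season (horizontal axis), with winter on the left, summer on the right and lines for RARRES2 and CCRL2. The summer distribution has a long right arm in which RARRES2, at 2.41, and CCRL2 both lie.

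CCRL2, the atypical receptor that concentrates chemerin at the cell surface, was at low counts throughout. Winter A had 9 reads (6.79 normalised, interval 3.11 to 12.9), winter B 11 reads (11.6, 5.81 to 20.8), summer A 0 reads (upper limit 4.0) and summer B 24 reads (27.4, 17.5 to 40.7). The summer libraries were the lowest and the highest of the 4, with both winter libraries between them, so the seasons overlapped, and they did so under every scaling tried. Summer B exceeded summer A at least 8.41-fold when summer A is set to 3 reads. Summer B held all 24 summer reads (exact binomial interval 85.8 to 100%).

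The season means of CCRL2, 13.7 in summer and 9.21 in winter, differed by 1.48-fold (log2 ratio -0.57, with no test for the same reason). Without summer B the direction turned, the winter level being at least 2.83-fold higher than 3 reads in summer A. The difference of mean log2(normalised reads + 0.5), which gives the library at 0 more weight, also had the opposite sign, at 1.33. No direction between the seasons can therefore be given for CCRL2. Without summer A the summer level was 2.97-fold the winter level, without winter B 2.01-fold and without winter A 1.18-fold.

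The entry CMLKR1 was at or near the floor in each library, with 1 read in winter A, 2 in winter B, 4 in summer A and 0 in summer B. Its season means were 2.17 in summer and 1.43 in winter, and a difference was not detectable at this depth. No signalling receptor of chemerin thus had a measured level here, since GPR1 had no mean and CMKLR1 was not analysed.

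The genes around chemerin were described over 5 lists, and those with recovered reads were tested by edgeR's quasi-likelihood method. A gene was called when it differed more than 2-fold with an unadjusted p under 0.05. Over all 7658 genes tested, 1.67% were called in either direction, 0.849% with winter higher and 0.823% with summer higher. With Benjamini-Hochberg adjustment of edgeR's quasi-likelihood test, 0 genes had an adjusted p under 0.05, while 152 genes (1.98%) had an unadjusted p under 0.05. In the 5 lists 34 genes were tested and 1 was called, APLNR.

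Prochemerin is cut by plasmin, tissue and urokinase plasminogen activator, coagulation and neutrophil serine proteases, cathepsins and carboxypeptidases. Of 16 genes for these enzymes 10 had season means and 3 were tested, with 0 called in either direction and a median log2 ratio of -0.76, compared to -0.11 over all genes tested. Over the 7 with a season mean of at least 10, the median was -0.17, compared to -0.04 over all such symbols. The 6 genes with recovered reads summed to 116, 70.9, 65.1 and 180 normalised reads in winter A, winter B, summer A and summer B, so summer B was highest by 1.55-fold. PLAT, tissue plasminogen activator, had season means of 805 in summer and 716 in winter, and CTSS, cathepsin S, had 513 and 356.

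PLG, which encodes plasminogen, and CPB2, a carboxypeptidase that trims activated chemerin, are described for their library pattern, chosen after their values were seen. PLG had 19 and 12 reads in winter A and B, 12 in summer A and 52 in summer B. CPB2 had 30 and 22 reads in winter A and B, 3 in summer A and 66 in summer B. Both were thus highest in summer B, as were RARRES2 and 37.5% of all genes tested. Neither was called, PLG having a log2 ratio of -1.39 and CPB2 of -0.76, each with an adjusted p of 0.982 by edgeR's quasi-likelihood test. PLAU, urokinase plasminogen activator, the remaining protease gene tested, had 90 and 26 reads in winter A and B, 42 in summer A and 33 in summer B. It was highest in winter A, with a log2 ratio of 0.23, and was not called. ELANE, neutrophil elastase, had 6 and 2 reads in winter and none in summer, and F12 and CMA1, coagulation factor XII and mast cell chymase, had 8 reads or fewer per library.

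Chemerin receptors couple to inhibitory G proteins, arrestins and the RhoA and ROCK pathway. All 15 signalling genes with season means passed 10 in a season, with a median log2 ratio of -0.00 and 0 more than 2-fold apart. GNAO1, an inhibitory G protein alpha subunit, had season means of 974 in summer and 838 in winter, and ROCK1, a kinase downstream of RhoA, had 677 and 649. Of the 3 genes tested, 0 were called. Their summed level was 186 normalised reads in summer B and 186 to 262 in the other 3 libraries, so summer B was not their highest library.

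The related receptors for complement peptides, formyl peptides and chemokines numbered 16, of which 11 had season means and 8 were tested, with 0 called and a median log2 ratio of -0.32. CX3CR1, the fractalkine receptor of microglia, had season means of 1169 in summer and 951 in winter. ACKR3, an atypical receptor as CCRL2 is, had 162 and 121 reads in winter A and B, 183 in summer A and 94 in summer B. It was therefore highest in summer A, the library in which CCRL2 had no read. ACKR2, another atypical chemokine receptor, was singled out after its values were seen as the 1 gene with means over 2-fold apart among the 9 of this list that reached 10 in a season, with 14 and 13 reads in winter A and B, 41 in summer A and 20 in summer B. It was not called (log2 ratio -1.48, adjusted p 0.982 by edgeR's quasi-likelihood test). Of the 8 tested genes 2 were highest in summer B, compared to 37.5% of all genes tested.

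RARRES2 was named for its response to a retinoid in skin. Of 21 genes for retinoid receptors, carriers and enzymes and the other responder genes, 18 had season means and 13 were tested. None of the 13 was called by edgeR's quasi-likelihood test, and 0 of the 16 with a mean of at least 10 were more than 2-fold apart (median log2 ratio 0.03). RARRES1, another retinoid responder gene, had 98 and 96 reads in winter A and B, 82 in summer A and 70 in summer B. ALDH1A1, which makes retinoic acid, had season means of 1192 in summer and 1203 in winter, and RXRA, a partner of the retinoic acid receptors, had 114 and 209. The summed level of the 15 recovered genes was even across the libraries, at 575 to 609 normalised reads, with 598 in summer B.

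Among adipokines and their receptors, 10 of 14 genes had season means and 7 were tested. The 8 with recovered reads summed to 309, 290, 226 and 496 normalised reads in winter A, winter B, summer A and summer B, with summer B highest by 1.61-fold. APLNR, the apelin receptor, was called with summer higher, at a log2 ratio of -2.96 (edgeR's quasi-likelihood test, adjusted p 0.982). It had 16 and 3 reads in winter A and B, 8 in summer A and 106 in summer B, so it too was high in summer B only, and summer A lay between the winter libraries. APLNR was not called without winter A, winter B or summer B. The adiponectin receptor ADIPOR1 had season means of 289 in summer and 250 in winter, and the adiponectin-binding cadherin CDH13 had 187 and 169. LEPR, the leptin receptor, named after its values were seen, had 72 and 65 reads in winter A and B, 10 in summer A and 120 in summer B. Its lowest library was therefore summer A, where RARRES2, with 81 reads, was level with winter A.

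**Figure D4:**
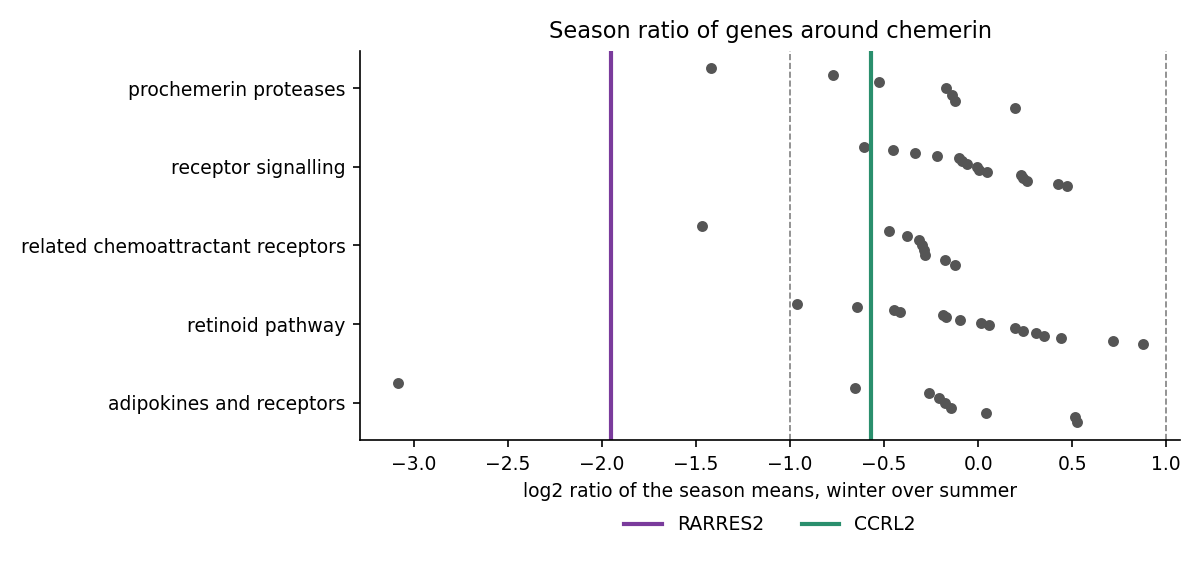
Log2 ratio of the season means, winter over summer (horizontal axis), for each gene whose mean reached 10 in winter or summer in 5 lists (rows); vertical lines give RARRES2 and CCRL2 and dashed lines mark a 2-fold difference. PLG, ACKR2 and APLNR are the 3 points beyond 2-fold, all with summer higher.

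Markers of cell types that dissection could include were summed in each library, and their part in the RARRES2 values was not tested. Adipocyte genes, 4 of 6 with reads, summed to 33.2 and 24.3 normalised reads in winter A and B, 20.6 in summer A and 74.1 in summer B. This list was low in level but highest in summer B, 2.23-fold above the next library. It consisted of CIDEA (22.6, 12.7, 18.4 and 30.8 in the same order), PLIN1 (1.51, 5.29, 1.08 and 19.4), FABP4 (2.26, 4.23, 1.08 and 14.8) and LEP (6.79, 2.12, 0 and 9.12). Both tested adipocyte genes were highest in summer B, and 0 were called.

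Choroid plexus genes, 4 of 7 with reads, summed to 132, 108, 115 and 228 normalised reads in winter A, winter B, summer A and summer B. FOLR1, the folate receptor of that epithelium, gave most of the sum, with 103, 64.5, 87.8 and 163. SLC4A5 had 24.1, 25.4, 19.5 and 38.8, and CLIC6 had 0, 8.46, 0 and 18.2. OTX2 had 4.53, 9.52, 7.59 and 7.98, so it was highest in winter B and near level between the summer libraries. The summed list was highest in summer B by 1.73-fold, compared to 5.26-fold for RARRES2.

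Tanycyte and ependyma genes, 8 of 11 with recovered reads, summed to 221, 168, 205 and 326 in the same order. CD59 had 129, 75.1, 160 and 160 and TMEM212, a gene of ciliated cells, had 10.6, 37.0, 5.42 and 93.5, while CRYM, a tanycyte gene, had 42.3, 21.2, 11.9 and 28.5. Of the markers that define tanycytes, RAX had 0 and 5 reads in winter A and B, 0 in summer A and 3 in summer B, and GPR50 had 2 and 5 reads in winter A and B, 0 in summer A and 1 in summer B. Both were low and highest in winter B, where 5 reads gave 5.29 normalised reads. FOXJ1, of ciliated ependyma, had 3.77, 0, 2.17 and 11.4 normalised reads and was highest in summer B, as were TMEM212 and RARRES2. CCDC153 had 6.04, 7.40, 3.25 and 7.98 in the same order, and LHX2 had 27.9, 16.9, 21.7 and 20.5, highest in winter A. Of the 4 tested genes only 1, TMEM212, was highest in summer B, compared to 37.5% of all genes tested. None of the 4 tested genes was called. VIM, an intermediate filament gene shared by tanycytes and other glia, had no recovered reads and season means of 367 in summer and 165 in winter. NES, also without recovered reads, had 205 in summer and 234 in winter.

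Meningeal fibroblast genes, 12 of 14 with reads, summed to 561, 466, 531 and 734. SLC6A13 had 95.8, 94.1, 101 and 132, and COL3A1 had 116, 75.1, 104 and 121. COL1A2, a collagen chain, was called with summer higher (log2 ratio -1.02, edgeR's quasi-likelihood test, adjusted p 0.982), but with 56 and 56 reads in winter A and B, 106 in summer A and 78 in summer B it was highest in summer A. IGF2 had 0, 3.17, 0 and 1.14 normalised reads. The list stood 1.31-fold above the next library in summer B, and 6 of its 10 tested genes were highest there, compared to 37.5% of all genes tested. By season means 3 of its 10 genes whose mean reached 10 were over 2-fold apart, compared to 7.26% of all such symbols. These were COL1A2, MGP and DPT, all with summer higher, as in 4.53% of all such symbols. DPT, the dermatopontin gene of the extracellular matrix, had 7.55, 11.6, 2.17 and 61.6 normalised reads, so it was far above the other libraries in summer B, as RARRES2 was. MGP, matrix Gla protein, had 18.1, 6.35, 43.4 and 18.2 and was highest in summer A. COL1A1 had 67.2, 25.4, 43.4 and 37.6 and PCOLCE had 56.6, 42.3, 17.4 and 45.6. Both were highest in winter A and had higher season means in winter.

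Blood cell genes, 7 of 9 with reads, summed to 58.1, 58.2, 91.1 and 122, with 3 tested and 0 called. CD3E, a T cell gene, had 36.2, 34.9, 66.1 and 65.0, LTF had 12.8, 10.6, 14.1 and 33.1, and S100A8 had 4.53, 4.23, 9.76 and 11.4. MPO had 4 reads in summer B and none elsewhere, S100A12 had 0 reads in winter A and summer A, SLC4A1 had 0 in summer A and CD79A had 0 in summer B.

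For the remaining lists the sums cover some of the genes, since abundant genes had no recovered reads, and do not stand for the whole list. The 4 recovered of 11 microglia genes with season means summed to 288 in summer B and 338 to 461 in the other libraries. By season means the 11 had a median log2 ratio of -0.26, and abundant complement genes of microglia had higher means in summer, C1QB with 3476 compared to 2278 in winter and C1QC with 1778 compared to 1230. The 4 recovered of 9 endothelial genes summed to 225 in summer B and 192 to 250 elsewhere, and the 9 season means had a median log2 ratio of -0.09. The 6 recovered of 10 mural genes summed to 365 and 302 to 483, and the 9 whose mean reached 10 had a median of -0.05. None of the 13 tested genes of these lists was called. Mural KCNJ8 had 14.3, 5.29, 0 and 3.42 normalised reads.

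The 3 recovered of 5 astrocyte genes summed to 334, 157, 137 and 296, with 0 called and a median log2 ratio of 0.15. By season means the 5 genes had a median log2 ratio of -0.70. Summer was higher for GFAP, the astrocyte filament gene (25074 compared to 14423 in winter), and the gap junction gene GJA1 (227 compared to 139). AQP4 was also higher in summer (log2 ratio of its season means -1.01). ALDH1L1 and SLC1A3 were higher in winter, with season means of 144 and 96.3 compared to 119 and 87.5 in summer. Oligodendrocyte genes had no recovered reads, and the 5 season means had a median log2 ratio of 0.19. Of the magnocellular genes, summing to 292, 112, 331 and 344, PDYN, the dynorphin precursor, was called with summer higher (log2 ratio -1.76, edgeR's quasi-likelihood test, adjusted p 0.982). PDYN had 63.4, 8.46, 128 and 127 normalised reads and the prohormone convertase gene PCSK1 had 41.5, 24.3, 82.4 and 55.9, so both were lowest in winter B. POU3F2 had 44.5, 44.4, 30.4 and 60.4, so it was level between the winter libraries and lowest in summer A.

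Olfactory receptor genes, which most tissues keep silent, were added after their values were seen because several shared the pattern of CCRL2. Reads were recovered for 271 of 345 symbols and summed to 3005 normalised reads in winter A, 4240 in winter B, 1898 in summer A and 9084 in summer B. In summer A 138 of the 271 had 0 reads, compared to 13 in summer B, 21 in winter A and 27 in winter B. Summer B was highest for 124 of the 141 tested, compared to 37.5% of all genes tested. The order of the 4 libraries was that of CCRL2, whereas RARRES2 was as high in summer A as in winter A. Whether the same reads or cells underlie the olfactory receptor and CCRL2 values was not tested.

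**Figure D5:**
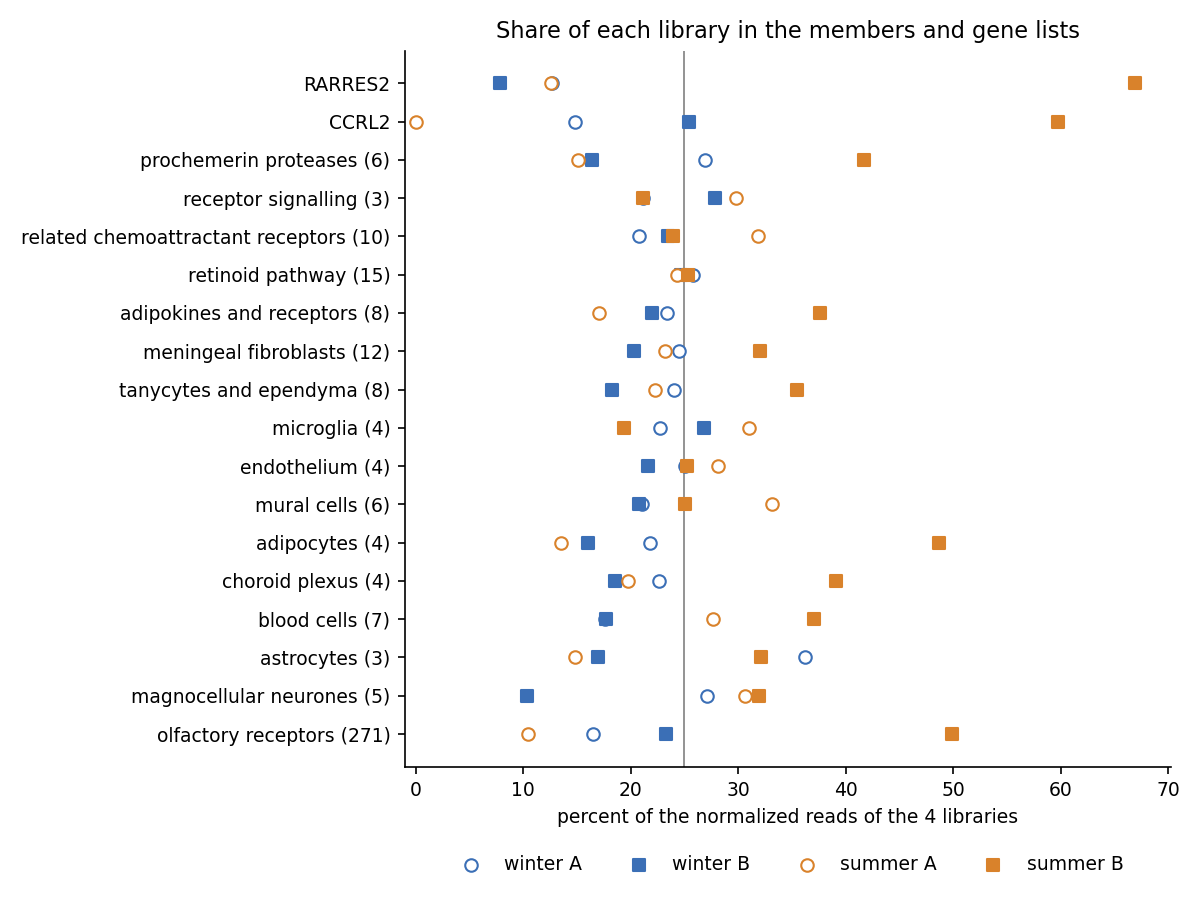
Share of each library (horizontal axis, percent of the normalised reads summed over the 4 libraries) in RARRES2, CCRL2 and each gene list (rows, with the number of genes with recovered reads). The vertical line marks an even share. Summer B holds the largest share of RARRES2, CCRL2, adipocyte genes and olfactory receptor genes. It also holds the largest share of the protease, adipokine, meningeal fibroblast, tanycyte and ependyma, choroid plexus, blood cell and magnocellular lists. The retinoid genes lie close to even.

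The genes whose pattern over the 4 libraries was most like that of RARRES2, by the root mean square difference of centred log2(normalised reads + 0.5), were CRX (0.106), IKZF3 (0.230), BATF (0.246), IL17REL (0.257) and TMEM261 (0.269). CRX, a photoreceptor and pineal transcription factor, had 17 and 8 reads in winter A and B, 13 in summer A and 56 in summer B. IKZF3 and BATF are transcription factors of lymphocytes. These 2, IL17REL and TMEM261 were lower still, with 19 to 41 reads in summer B and 3 to 10 elsewhere, so their likeness rests on few reads. For CCRL2 the nearest was ZSWIM2 (0.0498), with 9 and 12 reads in winter A and B, 0 in summer A and 25 in summer B. Of the 20 genes nearest CCRL2, 6 were olfactory receptors, and of the 20 nearest RARRES2, 0 were, where such genes made up 1.84% of those tested. The olfactory receptors were added because several shared the pattern of CCRL2. These counts therefore restate that choice in part and are a description only.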

How the data were processed

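RNA from the supraoptic nucleus of 2 winter and 2 summer dromedaries was sequenced by the authors as stranded, ribosomal RNA-depleted libraries. They aligned the reads with TopHat to their own dromedary assembly and counted them with HTSeq; versions are not given in the sources used here. The deposited counts are raw reads per gene model, without names or normalization, and 5 tally lines per file (72.2% to 79.3% of alignments) stayed out of the totals. The deposited table holds, per symbol, a signal, which is the season average of the counts after division by the size factors of DESeq. The authors also deposited a fold ratio and a p-value of edgeR, neither of which was used.

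Whole reads were recovered from the season means. Every mean was a sum of whole reads within its 6 printed digits. Of 2392 low summer means 100% were, compared to 0.042% after moving them at random. This control covered low means only. At higher means, such as the summer mean of 278 of RARRES2, more sums of whole reads lie close to any value, and it was not run there. Single solutions are lost at lower means in winter, so recovered genes favour low winter means. Genes whose mean reached 10 in winter or summer were fitted in R 4.3.3 with edgeR 4.0.16 (glmQLFit with legacy set to FALSE, glmQLFTest, Benjamini-Hochberg over all genes), scaled by the size factors. Other fits used limma-trend (limma 3.58.1), DESeq2 1.42.0 and edgeR's exact test, other scalings, filters and pseudocounts, and leaving out each library. Scripts were tested on simulated data. The biological coefficient of variation was 0.459. The label replicates are taken as separate animals; otherwise p-values measure only the spread between these samples.

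The members and gene lists were chosen with earlier results of these data known. In each pathway list the genes named are those called and the 2 with the highest mean. In each marker list they are those called, those at 0 reads and, where the summed level was highest in summer B, the 3 highest with recovered reads. The 5 genes most like RARRES2 and the 1 most like CCRL2 are also named. PLG, CPB2, ACKR2, LEPR, VIM, DPT, MGP, C1QB, C1QC, GFAP, GJA1, RARRES1, ELANE, F12, CMA1, SIM1, OTP, OXT and the olfactory receptors were added after their values were seen. So were PLAU, ALDH1L1, SLC1A3, AQP4, NES, CCDC153, LHX2, COL1A1, PCOLCE and POU3F2. Reads of genes with near-identical copies, olfactory receptors among them, are uncertain. Figures were drawn with matplotlib 3.10.9.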

Additional observations from a re-analysis of the deposited data

How the results depend on the processing

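The precision of every difference is limited by 2 libraries per season. No paired analysis was possible because the winter and summer libraries came from different animals, and a replicate number shared between seasons is no pairing. For RARRES2 the log2 ratio of winter over summer was -1.95 and kept its direction under every alternative run, from -1.93 with a pseudocount of 1 to -1.53 as a difference of mean log2, and from -2.70 to -0.29 with each library left out. For CCRL2 it was -0.57, from -0.33 to -0.52 under other scalings and pseudocounts, but reversed to 1.33 as a difference of mean log2, and ranged from -1.57 to 1.502 with each library left out, the last without summer B. The 128 genes called became 59 with DESeq2, 85 with limma-trend and 80 with a mean of at least 10 in both seasons. Scaling by total recovered reads gave 168, of which 72.6% were higher in winter, compared to 50.8% as reported. Leaving out 1 library gave 35 (winter A), 50 (winter B), 1107 (summer A, 14.4% higher in winter) and 1157 (summer B, 82.0%), the lone library being assumed to vary like the other season. At an adjusted p under 0.05 there were 273 genes without summer A, 213 without summer B, 1 with the exact test, 1 with DESeq2 and 0 under the other settings. The cause was not tested. The 1002 symbols with season means over 2-fold apart became 508 with a mean of at least 10 in both seasons, 283 with a mean of at least 50 and 255 at 3-fold. In the pathway lists the 1 call became 3 by season means (ACKR2, APLNR and PLG), and 0 to 6 with each library left out: 0 without winter A or winter B, 6 without summer A (APLNR among them) and 4 without summer B. Of the 5 genes most like RARRES2, 2 were shared with a pseudocount of 5 and 0 when a mean of 50 was required in a season.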

Other observations

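The genes next to RARRES2 on the RefSeq annotation of assembly mCamDro1.pat did not share its pattern. REPIN1, a zinc finger gene, had 41.5 and 13.7 normalised reads in winter A and B, 17.4 in summer A and 13.7 in summer B. LRRC61 had 73.2, 23.3, 44.5 and 66.1 in the same order, so both neighbours were highest in winter A, where RARRES2 had 89.0. LTF, the lactoferrin gene beside CCRL2, had 12.8, 10.6, 14.1 and 33.1 and was highest in summer B, but was not at 0 in summer A. These 3 genes were chosen after the values of RARRES2 were seen.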
